A study of Caenorhabditis elegans with 30 samples.

Results

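The cytosolic ribosomal protein genes of Caenorhabditis elegans were taken as all genes whose name starts with rpl or rps followed by a number, after the gene identifiers of the count tables were matched to gene names. This gave 78 members among the 46726 genes listed, 47 of the large subunit (rpl) and 31 of the small subunit (rps). Of these, 75 had enough counts to be tested, 44 rpl and 31 rps genes. The 3 others were rpl-24.2 and rpl-37, with 0 counts in all 30 libraries, and rpl-42, with 69 counts in total and at most 8 in any library. Where reads of a gene can be counted, a total of 0 counts allows up to 3 counts over all libraries. This bound is 0.00443 counts scaled to the library size (CPM, counts per 1e6). The coding part of rpl-37 is a single exon inside pitp-1, and rpl-24.2 lies inside C03D6.1, in each case on the opposite strand. Whether reads of rpl-37 and rpl-24.2 could be counted was not tested, so their 0 counts do not show that they are silent. RefSeq names 17 members otherwise, for instance rpl-25.1 and rpl-25.2 as rpl-23A.1 and rpl-23A.2.

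The RNAseq experiment compared whole nematodes exposed to 1 of 3 thymidine analogues with solvent and untreated animals. Synchronized nematodes were raised on OP50 bacteria to the L4 stage, the last larval stage, and then kept for 24h or 72h on plates with 100μM zidovudine (AZT), stavudine (d4T) or alovudine (FLT), with 0.033% DMSO alone, or with nothing added (unexposed). The analogue plates carried DMSO as well, so the DMSO groups were their solvent controls, and the 72h plates were renewed daily. Each of the 10 groups held 3 libraries described as biological triplicates. The 24h and 72h libraries of an exposure ran together in 1 lane, a different one for each exposure and for FLT on another flow cell, so exposure and lane cannot be told apart, whereas 72h against 24h was compared within a lane.

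The ribosome translates messenger RNA on its small subunit and joins amino acids on its large subunit, and each subunit is assembled in the nucleolus from ribosomal RNA and a fixed set of proteins. The proteins are needed in nearly equal number and their genes are expressed strongly in growing tissues. In C. elegans the gonad of the young adult is the main site of cell production. Most ribosomal proteins are known to come from a single gene in the nematode, but a few have a second copy, and genes on the X chromosome are known to be expressed weakly in the germ line.

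The libraries held 11.3 M to 30.6 M counts on genes (M, 1e6 counts). Ribosomal RNA took 0.259 to 5.78% of these counts, with the highest shares in AZT 72h replicate 1 (5.78%) and d4T 24h replicate 1 (4.99%). One library stood apart from its group: in d4T 24h replicate 2 a list of germline genes summed to 18340 CPM, against 5035 and 5096 in the other d4T 24h libraries. Of that list 26 of 27 genes were tested, and none of the 7 defining germline markers was at 0 in any library. The summed germline level ranged from 8189 to 9735 in unexposed, 6545 to 9831 in DMSO, 13880 to 16480 in AZT and 2243 to 4811 in FLT animals at 24h. At 72h it ranged from 12290 to 14950 in unexposed, 14490 to 14740 in DMSO, 5184 to 6846 in AZT, 9872 to 11060 in d4T and 10760 to 17030 in FLT animals. In whole nematodes, fewer cells of a type and less RNA per cell cannot be told apart.

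Ribosomal protein genes took a large share of all counts on genes, and this share differed between the 72h groups. At 24h it lay between 8.6 and 13% in every library, with 10.2 to 11.6% in unexposed, 8.85 to 9.60% in DMSO, 11.09 to 11.79% in AZT, 8.6 to 11.13% in d4T and 11.12 to 13% in FLT animals. At 72h it was 4.78, 5.27 and 5.03% in unexposed animals, 5.94 to 6.20% with d4T and 6.34 to 8.17% with AZT. It was 12.2, 10.6 and 10.6% with DMSO alone and 11.3, 9.66 and 9.41% with FLT. Every unexposed, d4T and AZT library at 72h thus lay below every DMSO and FLT library. The ranges of unexposed, d4T and AZT animals did not overlap one another either, while those of DMSO and FLT animals did.

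**Figure D1:**
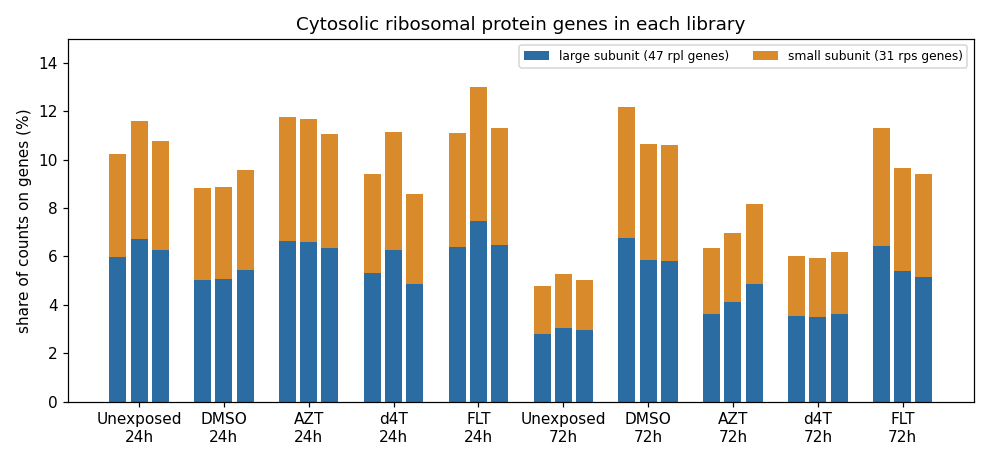
Share of the counts on genes (percent) taken by the 47 rpl genes (blue) and the 31 rps genes (orange), stacked, with 1 bar per library and the 3 replicates of a group side by side. At 72h the bars of unexposed, AZT and d4T animals end between 4.78 and 8.17%, and those of DMSO and FLT animals between 9.41 and 12.2%.

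Both subunits followed the same course. Over the 30 libraries the summed levels of the rpl and the rps genes were tightly related (Pearson's r = 0.990, Spearman's rho = 0.981, as a description, since both share the libraries' scaling). The summed rpl level divided by the summed rps level was 1.39 to 1.41 in unexposed animals at 24h and 1.38 to 1.41 at 72h. With DMSO it was 1.31 to 1.33 at 24h and 1.225 to 1.244 at 72h, and with FLT 1.34 to 1.36 and 1.22 to 1.32. At 72h it was 1.40 to 1.43 with d4T and 1.325 to 1.466 with AZT. Among the 72h libraries the DMSO and FLT libraries thus held the lowest ratios.

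Single members differed widely in level. Per kilobase of exon, the highest mean levels over all libraries were those of rpl-41.2 (13140 CPM per kilobase), rpl-39 (9065) and rpl-29 (8499), which encode some of the shortest proteins of the large subunit. Among the 75 members tested, the lowest levels per kilobase were those of rpl-25.1 (266.1), rpl-7A (460.4) and rpl-11.2 (471.2). Of these last 3, rpl-25.1 and rpl-11.2 are second copies on the X chromosome. Over the means of the 10 groups, 53 of the 75 members followed the median of the other members with r of at least 0.9, and 4 had r under 0.5: rpl-41.1 (r = -0.00278), rpl-11.2 (0.329), rpl-25.1 (0.406) and rpl-29 (0.445). These are descriptions over 10 groups, with no test.

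In unexposed animals the members differed between 24h and 72h. Only the 72h cultures were moved to fresh plates daily, so time and handling cannot be told apart. From 24h to 72h, 73 of 75 members fell (edgeR's quasi-likelihood test, adjusted p under 0.01, as in all calls below), against 8.94% of the 16048 genes tested, and the median log2 change of the members was -1.28. In every one of the 75 members all 3 libraries at 72h lay below all 3 at 24h (27.1% of all genes). The 2 members that did not pass were the X-linked rpl-11.2 (log2 change -0.57 ± 0.30, SE, n = 3 against 3, adjusted p = 0.159) and rpl-25.1 (-0.39 ± 0.32, adjusted p = 0.399). In the same libraries epidermis markers summed to 1178 to 1278 CPM at 24h and 382.6 to 432.9 at 72h (1 of 12 higher and 2 lower), and muscle markers to 2211 to 2979 and 920.1 to 1069 CPM (5 of 12 lower). Germline genes summed to 8189 to 9735 and 12290 to 14950 CPM (1 of 26 higher and 3 lower). The part of these tissues in the members' values was not tested.

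With AZT and d4T the members also fell over this time. In AZT animals 70 members fell (24.1% of all genes) and none rose, with a median of -1.03. In d4T animals 60 fell (13.1% of all genes) and rpl-41.1 rose (10.2% of all genes higher, log2 change 0.88 ± 0.16, SE, edgeR's adjusted p = 8.88e-05), with a median of -1.16. In all, 58 members fell in each of the unexposed, AZT and d4T animals, and the overlap among all genes is not given here. In the fit of these d4T libraries alone, no member passed the test, and 61 were below and 1 above 0 with an unadjusted p under 0.05. The share of all genes in that fit is not given here.

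DMSO and FLT animals took another course from 24h to 72h. With DMSO 18 members rose (13.9% of all genes) and 5 fell (19.2% of all genes), and the median was 0.33. Among those that rose was rps-29, a zinc-binding protein of the small subunit on chromosome III (794300 to 795031, plus strand), at 398.2, 395.6 and 360.5 CPM at 24h and 1005, 688.4 and 769.9 at 72h. Among those that fell was rps-6, the small subunit protein that S6 kinase phosphorylates, from 1084, 1114 and 1155 to 825.7, 721.6 and 674.1. In neither gene did the libraries of the 2 times overlap. Without DMSO 24h replicate 1, 8 members rose and 3 fell, and without DMSO 72h replicate 1, 9 rose and 5 fell. With FLT 7 members fell (19.9% of all genes), none rose, and the median was -0.20 beside -0.21 for all genes. Without FLT 24h replicate 1 the count was 12, and without FLT 24h replicate 2 it was 4.

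At 72h the members differed between DMSO and unexposed animals, whose libraries ran in different lanes, so exposure and lane cannot be told apart. Against unexposed animals, 66 of 75 members rose (35 of 44 rpl and all 31 rps genes) and none fell, against 5.71% of all genes higher. The median log2 change was 1.41 (1.38 in rpl and 1.51 in rps genes), while the median of all genes was -0.08. In all 75 members the 3 DMSO libraries lay above the 3 unexposed libraries, which held for 26.2% of all genes. Intestine markers summed to 27540 to 35740 CPM in unexposed and 12180 to 15020 CPM in DMSO animals, with 3 of 12 lower (median -0.36), and 3 of 12 neuron markers were lower (-0.69). In the intestine sum vit-2 and vit-6 far outweigh elt-2 and ges-1. Their median counts over all libraries were 309103 and 358878.5 against 249.5 and 704. Sperm markers summed to 4.31 to 5.23 and 13.4 to 28.3 CPM, with 9 of 15 higher. Their counts were few, with medians over all libraries of 4 in msp-3, 11 in msp-142, 7 in gsp-3 and 5.5 in spe-9. Reads with several alignments made up 10.4 to 11.6% in unexposed and 7.53 to 7.84% in DMSO libraries. The part of these in the members' values was not tested.

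The 3 largest log2 changes with DMSO were those of rps-21, rps-29 and rpl-21. rps-21, a short protein of the small subunit, was at 201.6, 214.9 and 184.5 CPM in unexposed and at 1042, 748.1 and 770.1 in DMSO animals at 72h (log2 change 2.09 ± 0.20, SE, edgeR's adjusted p = 5.82e-08). rps-29 was at 192.9, 216.7 and 169.0 in unexposed animals, and thus 4.26-fold higher with DMSO. rps-6 rose less, from 474.9, 536.3 and 427.9 to 825.7, 721.6 and 674.1 (log2 change 0.63 ± 0.13, edgeR's adjusted p = 0.0014).

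The 9 members that did not pass were rpl-2, rpl-5, rpl-7A, rpl-11.2, rpl-25.1, rpl-29, rpl-39, rpl-41.1 and rpl-41.2, all of the large subunit. Their log2 changes ran from 0.38 in rpl-11.2 upward, so all were positive.

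At 24h none of 75 passed edgeR's test against unexposed animals, while 12.6% of all genes did, and the median log2 change was -0.16. With the unadjusted p under 0.05 taken instead, 3 members were higher (22.7% of all genes) and 19 lower (19.4%), and DESeq2 called 3 lower (12.7% of all genes in either direction). In the fit of these groups alone 2 members were higher and 17 lower, and the share of all genes in that fit is not given here. The 2 largest positive values were those of the X-linked rpl-25.1 (0.86 ± 0.32, SE) and rpl-11.2 (0.71 ± 0.30), and the most negative was that of rpl-41.2 (-0.84 ± 0.25).

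The analogues were compared with DMSO, and all of these comparisons at 1 time share the same 3 DMSO libraries. With AZT at 72h, 61 members fell (32 rpl and 29 rps genes) and none rose, against 21.6% of all genes lower and 27.2% higher. The members' median log2 change was -0.998 (-0.90 in rpl and -1.04 in rps genes), and that of all genes was 0.36. With d4T 65 members fell (36 rpl and 29 rps genes) and none rose, against 5.86% of all genes lower, with a median of -1.34 (-1.29 and -1.42) beside 0.17 for all genes. With FLT 15 fell (10 rpl and 5 rps genes) and none rose, against 3.54% of all genes lower, with a median of -0.39 (-0.39 and -0.36). Leaving out any 1 of these 6 FLT and DMSO libraries lowered the count to between 2 (without DMSO 72h replicate 1) and 9 (without DMSO 72h replicate 2).

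The values against the unexposed animals of the same time differ from these. With d4T at 72h none of the 75 members passed against unexposed animals (0.206% of all genes did), with a median of 0.10. The unadjusted p was under 0.05 in 9 members with a higher and 1 with a lower level. The share of all genes at that unadjusted threshold is not given here. With AZT 14 rose and none fell (18.6% of all genes higher, median 0.40), and with FLT 63 rose and none fell (5.96% of all genes higher, median 1.05). Of the 61 members lower with AZT than with DMSO, 61 were higher with DMSO than in unexposed animals, and of the 65 lower with d4T, 62 were. Those counts use the same DMSO libraries on both sides, and the overlap among all genes is not given here.

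rps-29 had the lowest log2 change of all members with d4T and with FLT, and was among the lowest 3 with AZT. At 72h it was at 301.1, 222.0 and 242.7 CPM with AZT, 184.2, 148.2 and 131.4 with d4T, and 332.1, 450.6 and 451.2 with FLT. All of these lay below the DMSO libraries, and those of d4T overlapped with the unexposed ones. The log2 changes against DMSO were -1.69 ± 0.22, -2.41 ± 0.22 and -0.997 ± 0.21 (SE, edgeR's adjusted p = 1.1e-06, 6.94e-08 and 0.00179).

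rpl-30, a large subunit protein with no bacterial counterpart, was the other member among the lowest 3 with each analogue. It was at 1308, 1006 and 1005 CPM with DMSO at 72h, at 336.7, 332.9 and 394.7 with AZT, at 283.9, 252.4 and 257.5 with d4T, and at 501.5, 609.3 and 592.3 with FLT. None of the analogue libraries reached the DMSO level. It was 3.12-fold lower with AZT, 4.18-fold lower with d4T and 1.95-fold lower with FLT.

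In all, 57 members fell with both AZT and d4T, and 15 with each of the 3 analogues. These comparisons share the 3 DMSO libraries, and the overlap among all genes is not given here. The 14 members that did not pass with AZT were rpl-2, rpl-3, rpl-4, rpl-5, rpl-7A, rpl-11.2, rpl-18, rpl-25.1, rpl-29, rpl-39, rpl-41.1, rpl-41.2, rps-2 and rps-6, with exon lengths from 236 nt (rpl-39) to 1456 nt (rpl-3). rps-6 was at 595.2, 560.8 and 650.4 CPM with AZT, below the DMSO libraries (log2 change -0.30 ± 0.13, SE, edgeR's adjusted p = 0.0544), and at 473.5, 433.6 and 430.7 with d4T (-0.73 ± 0.13, adjusted p = 0.000337). Germline genes moved as well in this comparison: 19 of the 26 tested were lower with AZT (median -1.31), 2 with d4T (-0.47) and none with FLT (-0.10), and with DMSO against unexposed animals 2 were higher (0.21). With FLT the unadjusted p was under 0.05 for 1 higher and 2 lower germline genes. Markers of somatic tissue were higher with AZT, 10 of 12 for muscle (median 1.34), 11 of 12 for neurons (1.38), 8 of 12 for epidermis with 1 lower (2.48) and 7 of 12 for intestine (1.36). The part of these tissues in the members' values was not tested. Without AZT 72h replicate 1, the library with most ribosomal RNA, 56 members were lower with AZT.

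**Figure D2:**
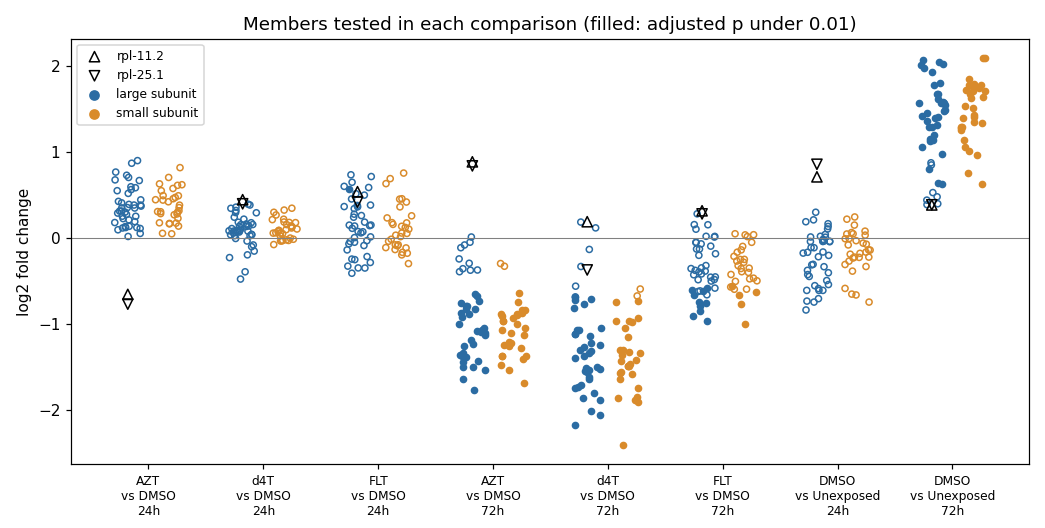
Log2 fold change of each of the 75 members tested in 8 comparisons, with rpl genes in blue and rps genes in orange. Filled points passed edgeR's test, and the 2 X-linked members are drawn as open black triangles: with AZT at 72h they lie at 0.89 and 0.84, above a median of -0.998.

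After 24h few members passed the test. With AZT none of 75 passed edgeR's test against DMSO (10.2% of all genes did), but 73 had a positive value, with a median log2 change of 0.35 beside -0.02 for all genes. The unadjusted p was under 0.05 for 41 members that were higher (19.1% of all genes) and 2 that were lower (23.6%), and in 61 members all AZT libraries lay above all DMSO libraries (29.5% of all genes). DESeq2 called 9 of 75 members higher (11.4% of all genes in either direction). The fit of these groups alone called 20 higher and 2 lower, and the share of all genes in that fit is not given here. Without AZT 24h replicate 3, 3 members were called higher. The largest value was that of rpl-25.2 (0.90 ± 0.30, SE), and the only negative ones were those of the X-linked rpl-25.1 and rpl-11.2. Against unexposed animals none passed either (0.704% of all genes did), with a median of 0.18. There 13 members had a higher level with an unadjusted p under 0.05, and the share of all genes at that threshold is not given here. Of the germline genes none passed with AZT at 24h and 15 of 26 were higher at an unadjusted p under 0.05 (median 0.76), and 9 of 12 intestine markers were lower. Their part in these values was not tested.

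With d4T at 24h none of 75 members passed edgeR's or DESeq2's test against DMSO (6.31% of all genes passed edgeR's and 6.35% DESeq2's). The median was 0.09, and the unadjusted p was under 0.05 for 3 members that were higher (17.1% of all genes) and 1 that was lower (9.34%). This group held the library that stood apart: the members summed to 129100 CPM in replicate 2 and to 99450 and 80540 in replicates 1 and 3. Without replicate 2, 3 members passed, rpl-11.2 as higher and 2 as lower, with a median of -0.08.

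With FLT at 24h 1 member passed, against 5.74% of all genes higher. This was rpl-41.1, at 186.5, 191.4 and 180.1 CPM with DMSO and 265.9, 301.5 and 263.1 with FLT (log2 change 0.57 ± 0.16, SE, edgeR's adjusted p = 0.00765). The call was lost under relative log expression scaling, when the filter on low counts was dropped and in the fit of these groups alone. It was also lost in all 6 fits with 1 library left out, with log2 changes of 0.37 (without FLT 24h replicate 2, edgeR's adjusted p = 0.129) to 0.60 (without FLT 24h replicate 1, adjusted p = 0.013). With library totals as scaling 15 members were higher, and the share of all genes under that scaling is not given here. The rpl-41.1 and rpl-41.2 genes lie side by side on chromosome I and each encode 22 codons in the annotation, so reads may be shared between them and their levels are uncertain. The members' median of 0.12 was no higher than the 0.15 of all genes.

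Between the analogues, which were compared with each other directly, the members also differed. At 72h the AZT animals had lower levels than the FLT animals in 47 members and higher levels in none (18.3% of all genes lower, median -0.62), and the d4T animals had lower levels than the FLT animals in 60 and a higher level in 1 (5.43% of all genes lower, median -0.95). The 1 higher was rpl-41.1 (5.76% of all genes higher). Between AZT and d4T, 12 members were higher with AZT and none lower (8.05% of all genes higher, median 0.39), among them rpl-25.1 (1.21 ± 0.33, SE, edgeR's adjusted p = 0.00885) and rpl-18 (0.76 ± 0.18, adjusted p = 0.0033). Without AZT 72h replicate 1, d4T 72h replicate 2 or d4T 72h replicate 3 no member passed, and leaving out each of the other 3 libraries gave 2 to 4. The median without AZT 72h replicate 1 was 0.35. Without AZT 72h replicate 2, the AZT animals were below the FLT animals in 29 members.

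At 24h 6 members differed between AZT and d4T (4 higher and 2 lower with AZT, 9.49 and 20% of all genes), 8 between AZT and FLT (6 higher and 2 lower, 17.4 and 23.1%), and 1 between d4T and FLT (rpl-41.1, lower with d4T, 1.45%). With library totals as scaling no member was higher and 3 were lower with AZT than with FLT. The 2 members lower with AZT were rpl-11.2 and rpl-25.1 in either case. Without d4T 24h replicate 2, 34 members were higher with AZT than with d4T, 2 lower, and 17 lower with d4T than with FLT, and without d4T 24h replicate 3, 6 were higher and 1 lower with d4T than with FLT. Leaving out any other 1 library gave 0 or 1 member for AZT against d4T. For AZT against FLT the count was 1 without AZT 24h replicate 1 or 2, 22 without FLT 24h replicate 2, 2 without FLT 24h replicate 1 and 0 without FLT 24h replicate 3. The shares of all genes under library totals and in these fits with 1 library left out are not given here.

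The effect at 72h was also compared with that at 24h directly. For AZT the effect against DMSO was lower at 72h in 61 members and higher in 2 (23.7 and 29.3% of all genes). For d4T it was lower in 59 and higher in none (3.08% of all genes lower), and for FLT lower in 7 and higher in none (3.56% of all genes lower). For FLT the count was 17 without FLT 24h replicate 1, 0 without FLT 24h replicate 2, and 2 to 4 in 8 of the other fits with 1 library left out. The medians of these differences were -1.39, -1.40 and -0.53 in log2. The 2 higher values for AZT were those of rpl-25.1 and rpl-11.2.

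The copies of rpl-11 and rpl-25 on the X chromosome and on an autosome moved apart. rpl-11 binds the large subunit together with rpl-5 as part of a complex with a small ribosomal RNA, and rpl-25 is the nematode form of a protein at the exit of the nascent chain. Among the 78 members, rpl-11.2 (X, 2241738 to 2242618, minus strand, WBcel235) and rpl-25.1 (X, 4715178 to 4715796, plus strand) are the only 2 on the X chromosome. This chromosome thus holds 2.56% of the members and 13.6% of all protein coding genes. Chromosomes I and III hold 23 and 18 members, 29.5 and 23.1% of them, beside 14.4 and 13.2% of the protein coding genes. The other copies are rpl-11.1 on chromosome V (3585312 to 3586064, minus strand) and rpl-25.2 on chromosome I.

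In AZT animals at 72h, rpl-11.2 was at 509.7, 377.0 and 351.0 CPM and rpl-11.1 at 486.3, 796.0 and 1123. With DMSO at 72h rpl-11.2 was at 263.3, 203.1 and 203.7 and rpl-11.1 at 2589, 2273 and 2104. All AZT libraries thus lay above the DMSO libraries in the X-linked copy and below them in the autosomal copy. The log2 changes were 0.89 ± 0.30 (SE, edgeR's adjusted p = 0.0124) in rpl-11.2, which did not pass, and -1.53 ± 0.31 (adjusted p = 0.000154) in rpl-11.1.

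The rpl-25 copies showed the same contrast. At 72h rpl-25.1 was at 113.0, 85.62 and 78.25 CPM with DMSO and 212.5, 150.1 and 132.4 with AZT (log2 change 0.84 ± 0.32, edgeR's adjusted p = 0.027). rpl-25.2 was at 1550, 1256 and 1192 with DMSO and 259.9, 392.3 and 517.1 with AZT (-1.77 ± 0.31, edgeR's adjusted p = 3.43e-05). The libraries of the 2 groups did not overlap in either gene.

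**Figure D3:**
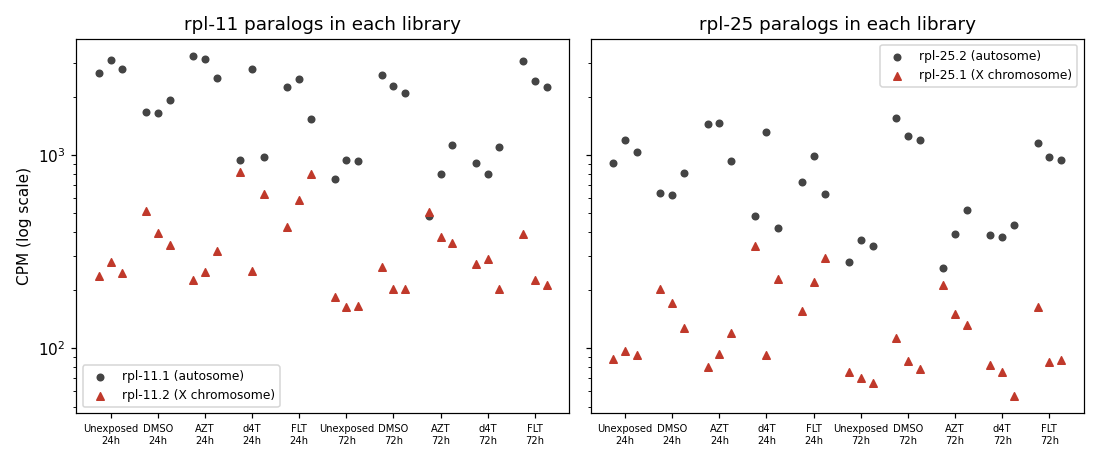
Level in CPM (log scale) of the autosomal (black circles) and the X-linked copy (red triangles) of rpl-11 and rpl-25 in each of the 30 libraries, by group. In AZT 72h replicate 1 rpl-11.2 (509.7) lies above rpl-11.1 (486.3), the only library where the symbols of a pair change order.

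At 24h the signs with AZT were the opposite. rpl-11.2 had a log2 change of -0.66 ± 0.30 (SE, edgeR's adjusted p = 0.0929) and rpl-25.1 of -0.77 ± 0.32 (adjusted p = 0.0725) against DMSO, while rpl-11.1 stood at 0.77 ± 0.30 and rpl-25.2 at 0.90 ± 0.30, and none of the 4 passed. The change of the AZT effect from 24h to 72h did pass in all 4 genes: 1.54 ± 0.42 in rpl-11.2, 1.61 ± 0.46 in rpl-25.1, -2.30 ± 0.43 in rpl-11.1 and -2.67 ± 0.43 in rpl-25.2 (SE, edgeR's adjusted p = 0.00256, 0.00351, 6.51e-05 and 1.29e-05). When each of the 12 libraries was left out in turn, the autosomal copies passed in all 12 fits, rpl-11.2 in 9 and rpl-25.1 in 6.

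The share of the X-linked copy in the counts of its pair summarises this. For rpl-11 it was 8.14 to 8.23% in unexposed animals at 24h, 6.5 to 11.23% with AZT, 15.1 to 23.5% with DMSO and 15.8 to 34.3% with FLT. In d4T animals at 24h it was 46.4, 8.27 and 39.2%, with the low value in replicate 2. At 72h it was 14.8 to 19.7% in unexposed, 8.20 to 9.23% in DMSO, 23.8 to 51.2% in AZT, 15.6 to 26.6% in d4T and 8.61 to 11.3% in FLT animals.

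The shares in the rpl-11 and rpl-25 pairs ran together over the 30 libraries (r = 0.976, rho = 0.936), as a description over libraries that share their scaling. The share in rpl-11 was lower where the summed germline level was higher (r = -0.693, rho = -0.646) and higher where ribosomal RNA took more counts (r = 0.725, rho = 0.519). It was also higher where more reads had several alignments (r = 0.842, rho = 0.609). Such reads were left out of the counts. Without AZT 72h replicate 1, the log2 change with AZT at 72h was 0.68 in rpl-11.2 and -1.30 in rpl-11.1. Without d4T 24h replicate 2, rpl-11.2 was higher with d4T than with DMSO at 24h (log2 change 0.77, edgeR's adjusted p = 0.00996) and rpl-11.1 lower (-0.89, adjusted p = 0.00318). The part of germline content, of ribosomal RNA and of reads with several alignments in these values was not tested.

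The members called in none of the 8 comparisons with DMSO, of the analogues or of DMSO with unexposed animals, were rpl-11.2, rpl-25.1, rpl-29, rpl-39 and rpl-41.2. rpl-29 was at 1925, 1646 and 1788 CPM with DMSO at 72h, at 2133, 2157 and 1798 with d4T, and at 636.9, 2154 and 2606 with AZT. The first AZT library was thus far below the 2 others, which lay above all DMSO libraries. Apart from the X-linked genes, these members have exons of 236 to 280 nt in total, among the shortest of all.

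Members are short genes, and their values varied with length in some comparisons. Their median exon length was 532 nt, from 236 to 1456 nt, beside 1173 nt for all protein coding genes. With FLT against DMSO at 24h, shorter members had higher values (rho of log2 change with exon length -0.635 over 75 members, and -0.364 over all genes). The 19 shortest members had a median of 0.45 and the 19 longest of -0.08. With DMSO against unexposed animals at 24h the relation ran the other way (rho = 0.508, 0.118 over all genes). The medians there were -0.39 and 0.01. With AZT against DMSO at 72h the relation was weak (rho = 0.289, 0.0855 over all genes) and both ends were negative, at -1.10 and -0.83. With d4T at 72h the medians were -1.46 and -1.15, and with DMSO against unexposed animals at 72h they were 1.57 and 1.14. These correlations are across genes, which are not independent replicates.

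The summed level of the short members over that of the long members ranged from 0.657 in d4T 24h replicate 1 to 1.47 in d4T 72h replicate 3 among all libraries. At 24h it was 1.09 to 1.14 in unexposed, 0.758 to 0.890 in DMSO and 0.978 to 1.03 in AZT animals. With d4T it was 0.657 to 0.834 and with FLT 1.15 to 1.31 at this time. The DMSO libraries overlapped with those of d4T but not with the unexposed, AZT or FLT libraries.

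**Figure D4:**
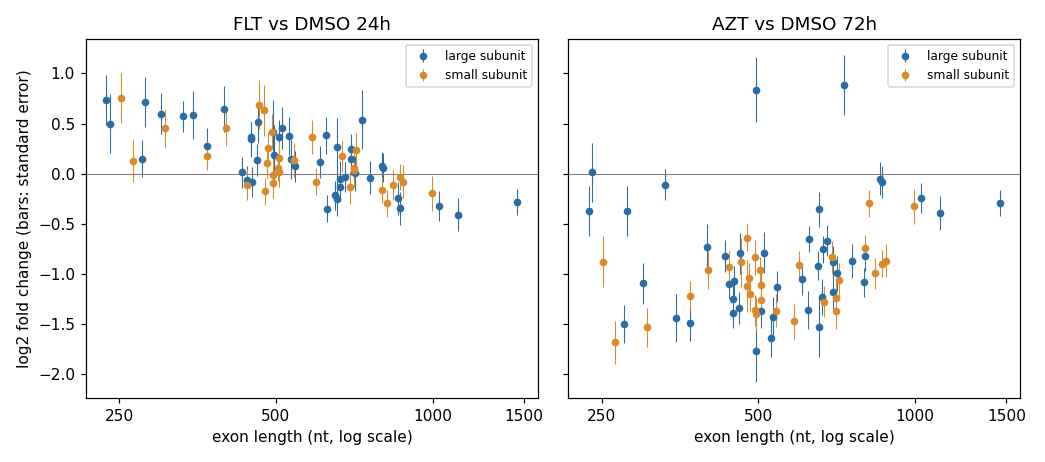
Log2 fold change of the 75 members against their exon length in nt (log scale), for FLT against DMSO at 24h (left) and AZT against DMSO at 72h (right), with bars for the standard error. On the left the values fall with length (rho = -0.635), and on the right the 2 members near 0.89 and 0.84 are rpl-11.2 and rpl-25.1.

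A list of 6 ribosomal proteins with other names held rla-0, rla-1 and rla-2, which form the stalk of the large subunit, rack-1, a scaffold on the small subunit, and ubl-1 and ubq-2, which are made as fusions with ubiquitin or a like protein. At 72h 5 of 6 fell with AZT (median -1.01), 6 with d4T (-1.33) and 3 with FLT (-0.43) against DMSO, and 6 rose with DMSO against unexposed animals (1.52). Beside this list and those below, 21.6% of all genes were lower and 27.2% higher with AZT at 72h. The shares were 5.86% lower with d4T, 3.54% lower with FLT and 5.71% higher with DMSO against unexposed animals. With d4T the smallest adjusted p was that of ubl-1 (-1.81 ± 0.17, SE, edgeR's adjusted p = 9.46e-08).

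Genes of the mitochondrial ribosome, which translates the messengers of mitochondrial DNA, were changed in the same direction with smaller medians at 72h. Of 68 tested, 39 fell with AZT (median -0.84), 27 with d4T (-0.48) and 8 with FLT (-0.21, with 1 higher), and 32 rose with DMSO against unexposed animals (0.60). mrps-28 had log2 changes of -1.58 ± 0.13 with AZT, -1.68 ± 0.13 with d4T and 1.61 ± 0.13 with DMSO against unexposed animals (SE, edgeR's adjusted p = 2.98e-09, 1.5e-08 and 2.88e-08). The difference between the lists was not tested.

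Factors of ribosome assembly and of translation were mixed. Of 35 assembly genes, which make and process ribosomal RNA, 20 were lower and 4 higher with AZT at 72h (median -0.64), 8 lower and 2 higher with d4T (-0.32), 1 lower and 4 higher with FLT (-0.05), and 5 higher and 1 lower with DMSO against unexposed animals (0.13). Among the lower genes the smallest adjusted p with AZT and with d4T was that of nifk-1 (-1.42 ± 0.18 and -1.33 ± 0.18, SE), and rpoa-1, the largest subunit of RNA polymerase I, rose with both (0.94 ± 0.14 and 0.78 ± 0.14).

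Of 34 initiation genes, 18 were lower and 3 higher with AZT (-0.58), 9 lower with d4T (-0.35) and 7 lower and 1 higher with FLT (-0.31). Of 11 elongation and termination genes, 3 were lower and 1 higher with AZT (21.6 and 27.2% of all genes, median -0.33), and 4 lower with d4T (5.86% of all genes, -0.33). The one higher was eef-1A.2 (2.06 ± 0.39, SE), a second form of the factor that brings transfer RNA to the ribosome.

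Among 14 regulators, 4 were lower and 3 higher with AZT at 72h (21.6 and 27.2% of all genes, median -0.23). With d4T 1 was higher (934 of all 16048 genes), ncl-1, a repressor of nucleolar growth (1.03 ± 0.23, SE). None passed edgeR's test with FLT (3 higher and 2 lower with an unadjusted p under 0.05). With FLT at 24h 6 of the 14 were lower (9.39% of all genes), and the smallest adjusted p among them was that of rsks-1, the S6 kinase (-1.08 ± 0.14, SE, edgeR's adjusted p = 8.49e-06). In that comparison germline genes were also lower, 13 of 26 (median -1.16), and their part was not tested.

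**Figure D5:**
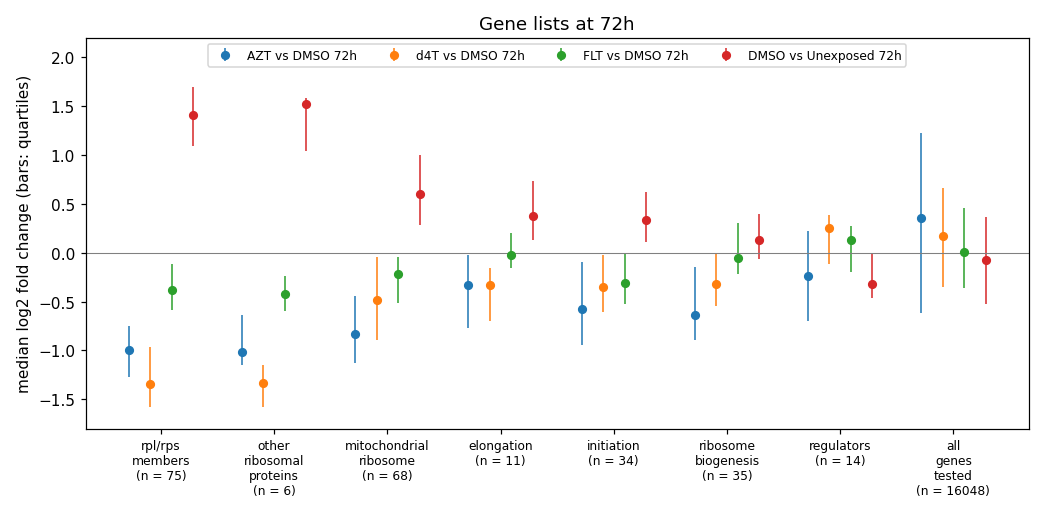
Median log2 fold change at 72h (points, bars for the quartiles) of the members and of 6 gene lists, beside all 16048 genes tested, in 4 comparisons. The members lie at -0.998, -1.34 and -0.39 with AZT, d4T and FLT against DMSO and at 1.41 with DMSO against unexposed animals.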

How the data were processed

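Raw counts per gene were deposited for 30 libraries. According to the study's methods and the submitters' processing notes, the authors trimmed reads with Trimmomatic 0.32, aligned them to WBcel235 with TopHat 2.0.8 and Bowtie 2.1.0 and counted them with HTSeq, whose version and strand setting are not given in the sources used here. Reads without a gene or with several alignments (10.5 to 26.5% per library) were left out, which affects near-identical copies.

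Here the counts were tested with edgeR 4.0.16 in R 4.3.3 (TMM scaling, filterByExpr with a minimum count of 10, quasi-likelihood test in 1 model of 10 groups with 20 residual degrees of freedom). P-values were adjusted over all 16048 genes tested by the Benjamini-Hochberg method and called under 0.01, the study's threshold. DESeq2 1.42.0 was an alternative. Levels are CPM with TMM factors. Names, exon lengths and positions came from the Ensembl 115 annotation of WBcel235. The test was checked on simulated data.

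The members and gene lists were chosen with earlier results of these data known. Named are the 3 members with the highest and the 3 with the lowest log2 fold change in each comparison with DMSO, paralogs, the highest and lowest levels, rps-6 and rpl-5, and in other lists the called gene of lowest adjusted p, once per direction. Further members were named after their values were seen. Nothing describes the cultures behind the triplicates, so p-values measure the spread between these libraries. Of the members, 9 share exon positions with a gene on the other strand and 5 with one on the same strand, so their counts may be mixed. Sequences of the members were not analysed here.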

Additional observations from a re-analysis of the deposited data

Results flagged for a closer look

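The effect of each analogue against DMSO differed between 24h and 72h by the interaction test (edgeR, adjusted p under 0.01). This held for 63 of 75 members with AZT, 59 with d4T and 7 with FLT. Among all 16048 genes tested it held for 8501, 1286 and 1562. The FLT count was 0 without FLT 24h replicate 2. With AZT the values of rpl-11.2 (1.54) and rpl-25.1 (1.61) were positive, and the most negative was that of rpl-25.2 (-2.67). With d4T the most negative was rps-29 (-2.56) and with FLT rpl-30 (-1.34). All of these are differences of log2 fold changes and share the DMSO libraries.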

How the results depend on the processing

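Counts of members called are given here, with the main count in the report. The shares of all genes in fits with other settings, here and in the report, are given only where stated. With relative log expression scaling 0 were called for FLT against DMSO at 24h, 4 for AZT against d4T at 72h and 4 for the FLT effect at 72h minus 24h. With library totals the counts were 4 for AZT and 15 for FLT against DMSO at 24h, 1 for DMSO against unexposed at 24h, 3 for AZT against FLT at 24h (0 higher and 3 lower, against 6 and 2), 7 for d4T against FLT at 24h, 32 for AZT against d4T at 72h, 14 for FLT over time and 19 for the FLT difference. Library totals also moved the summed level to 50280 CPM in unexposed animals at 72h, 91090 in DMSO and 115200 in AZT animals at 24h, and 71640 in AZT and 60630 in d4T animals at 72h. The median of all genes with AZT at 72h was 0.36 with TMM, 0.24 with relative log expression and 0.67 with library totals.

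Without the filter the counts were 0 for FLT at 24h, 8 for FLT at 72h, 3 for AZT against d4T and 4 for AZT against FLT at 24h, 6 for AZT against d4T at 72h and 3 for the FLT difference. In fits of the compared groups alone they were 22 for AZT and 0 for FLT at 24h, 19 for DMSO against unexposed at 24h, 0, 4 and 0 for AZT against d4T, AZT against FLT and d4T against FLT at 24h, 27 for AZT against d4T at 72h, 35 for DMSO and 0 for d4T over time, and 2 for the FLT difference. DESeq2 called 9 for AZT and 2 for FLT at 24h, 26 for FLT at 72h, 3 for DMSO against unexposed at 24h, 10, 17 and 8 between the analogues at 24h in the same order (5 higher and 3 lower with d4T than FLT), 20 for AZT against d4T at 72h and 11 for the FLT difference.

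With unexposed nematodes as the control 9 of 75 members passed for d4T (32.2% of all genes) and 2 for FLT (29.4%) at 24h. At 72h 14 passed for AZT, 0 for d4T (0.206% of all genes) and 63 for FLT. The 14 and 63 were higher rather than lower, beside 18.6 and 5.96% of all genes higher. The log2 changes at 72h were then 0.25, 0.40 and 0.16 in rpl-25.2, rps-29 and rpl-30 with AZT, 0.10 and 0.29 in rpl-11.1 and rpl-25.2 with d4T, and 1.09, 0.84 and 0.57 in rps-29, rpl-30 and rpl-1 with FLT. Lists that changed their prevailing direction held, with AZT at 72h against unexposed, 2 called of the other ribosomal proteins, 1 of elongation and 4 of the mitochondrial ribosome, and with FLT 6, 9 of initiation and 17. With library totals they were the mitochondrial ribosome with FLT at 24h (6), regulators with AZT at 72h (6) and assembly with DMSO at 72h (7). In AZT against DMSO at 24h they were initiation (11 in the groups alone, 4 by DESeq2) and regulators (5 in the groups alone, 1 against unexposed). Without DMSO 24h replicate 3, assembly with DMSO at 24h held 3. The cause of these changes was not tested.

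Leaving out 1 library at a time gave 0 to 3 members called for AZT, 0 to 3 for d4T and 0 to 1 for FLT against DMSO at 24h, and 56 to 63, 59 to 63 and 2 to 9 at 72h. It gave 0 to 0 and 58 to 66 for DMSO against unexposed at 24h and 72h. Between AZT and d4T, AZT and FLT, and d4T and FLT it gave 0 to 36, 0 to 22 and 1 to 17 at 24h, and 0 to 4, 29 to 44 and 51 to 60 at 72h. Over time it gave 71 to 72 in unexposed, 11 to 21 in DMSO, 68 to 71 in AZT, 60 to 64 in d4T and 4 to 12 in FLT animals, and for the differences 61 to 65, 53 to 61 and 0 to 17. The prevailing direction changed without AZT 24h replicate 3 (1 lower for AZT against d4T), without d4T 24h replicate 3 (7 for d4T against FLT, 6 higher), without FLT 24h replicate 1 (2 lower for AZT against FLT) and without FLT 24h replicate 2 (1 lower for FLT against DMSO).

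With the replicate number as a block, 0 members passed for FLT at 24h, and the other 21 of 22 counts stayed within 1.5 times the main count. Deviations of same-numbered libraries correlated above 0.1 in all 3 numbers for 1 of 45 pairs of groups, which is not a compared pair, so the libraries share only a number. Counts not named here stayed within 1.5 times.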
